A study of Homo sapiens with 3 samples.

Results

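Cellular glucose use and the response to low oxygen were examined through 38 listed genes in PANC-1, an established cell line from a human pancreatic carcinoma. The genes were glucose transporters, enzymes and regulators of glycolysis, lactate and pyruvate dehydrogenase kinase genes, and genes that respond to hypoxia. They were chosen by name, with earlier results of these data known, and every probe whose transcript accession matched a listed gene was taken. Of the 38 genes, 37 were matched by 46 probes, out of 19699 genes named by 25705 probes on the arrays. The signal of ALDOA was not analysed here.

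The study treated PANC-1 cells with cantharidin (CAN) or okadaic acid (OA), each of them an inhibitor of PP2A, a phosphatase that reverses the phosphorylation of many proteins. Cy3-labelled total RNA was read on 1-colour human oligonucleotide arrays, on which the brightness of a spot measures the matching transcript. There were 3 arrays, 1 for untreated control cells, 1 for cells given CAN and 1 for cells given OA, each agent for 24 h. The sample labels give 20 µM for each agent, while the treatment note states that dose only once, before both names. With 1 array per group, no difference has a replicate check and no test was possible. The error given beside a log2 difference is the SD of spot noise alone, estimated from probes spotted at least 8 times on an array. For the genes described here this SD ranged from 0.03 to 0.58 for CAN against control, and was lowest for bright probes with many spots.

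Glycolysis converts glucose to pyruvate in the cytosol, and lactate dehydrogenase then turns pyruvate into lactate, which leaves the cell through monocarboxylate transporters. Pyruvate can instead enter mitochondria, where pyruvate dehydrogenase commits it to oxidation and the pyruvate dehydrogenase kinases (PDKs) hold that enzyme back by phosphorylation. In low oxygen the hypoxia-inducible factors (HIFs) escape hydroxylation by the EGLN enzymes, bind DNA and raise transcription of many glycolytic genes, and pancreatic tumours are known for dense, poorly oxygenated tissue and for high use of glucose.

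The 4 promoters shown here belong to the genes with the highest and the lowest differences under OA among those with a single RefSeq start, and they let a reader look for the core letters of a HIF element beside the values that follow. Each is the 250 bases before the transcription start in GRCh38.p14, written from 5′ to 3′ on the strand of the gene, and capitals mark ACGTG or GCGTG on either strand. ADM lies at chr11:10304823-10305072 on the plus strand, ANKRD37 at chr4:185396591-185396840 on the plus strand, PDK4 at chr7:95596517-95596766 on the minus strand and PFKL at chr21:44299803-44300052 on the plus strand.
ADM: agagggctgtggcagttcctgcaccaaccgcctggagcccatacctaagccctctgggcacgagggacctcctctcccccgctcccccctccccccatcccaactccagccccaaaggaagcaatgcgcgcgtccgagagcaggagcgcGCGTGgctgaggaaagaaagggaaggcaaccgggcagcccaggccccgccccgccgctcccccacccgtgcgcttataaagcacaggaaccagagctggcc
ANKRD37: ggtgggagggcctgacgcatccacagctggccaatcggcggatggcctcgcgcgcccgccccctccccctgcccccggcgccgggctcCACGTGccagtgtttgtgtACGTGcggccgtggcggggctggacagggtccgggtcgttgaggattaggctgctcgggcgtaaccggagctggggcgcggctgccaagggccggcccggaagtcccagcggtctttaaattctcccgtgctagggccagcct
PDK4: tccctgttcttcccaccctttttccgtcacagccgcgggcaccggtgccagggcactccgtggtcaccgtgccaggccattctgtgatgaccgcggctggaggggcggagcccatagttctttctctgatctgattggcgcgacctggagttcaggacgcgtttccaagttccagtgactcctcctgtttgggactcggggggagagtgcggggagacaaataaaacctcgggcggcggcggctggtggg
PFKL: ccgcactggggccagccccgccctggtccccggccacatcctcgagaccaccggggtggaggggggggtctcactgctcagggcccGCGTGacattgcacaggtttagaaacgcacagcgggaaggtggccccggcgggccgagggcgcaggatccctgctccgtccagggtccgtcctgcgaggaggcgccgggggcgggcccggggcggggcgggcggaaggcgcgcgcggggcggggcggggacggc
ANKRD37 held 3 matches, of which a pair overlap because CACGTG reads the same on both strands. ADM, which was higher under OA, and PFKL, which was lower, each held 1 match to GCGTG, at 101 and 164 bases before the start. PDK4 held 0 matches, which says only that these letters are not in this window. Over all RefSeq windows of this length, 15172 of 35116 (43.2%) held at least 1 match, against 35 of 65 windows (53.8%) of the listed genes. The 65 windows belong to 34 genes, ALDOA among them, of which 21 have 1 window and the others several. SLC2A3, PFKFB2, SLC16A1 and NDRG1 have no window.

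The brightest probe represented each gene. It was well above background on all 3 arrays for 36 of the 37 genes, and no spot was saturated. Processed intensities are printed as deposited, while differences were taken after each array was scaled to its own 75th percentile, which lay at 784 for control, 713 for CAN and 936 for OA. A difference of at least 1.5-fold was called higher or lower. Positions of different genes on the intensity scale cannot be compared, since probes differ in how well they bind.

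The epithelial markers KRT7, KRT8, KRT18, KRT19 and EPCAM were well above background on all 3 arrays, with KRT18 the brightest at 70664 on control, 127869 on CAN and 193320 on OA. CDH1, the epithelial cadherin, was at 167 on control and not well above background on either treated array. VIM, a mesenchymal marker, gave 311685 on control, 304354 on CAN and 236756 on OA, well above background on all 3 arrays. Of 10 markers of leukocytes, endothelium, red cells, acinar and endocrine pancreas, 7, 8 and 8 were well above background on the control, CAN and OA arrays. The brightest of them, INS, reached 792, 618 and 765, and their summed intensity was 2380, 2646 and 2778. Of the listed genes, 6 were no brighter than INS on any of the 3 arrays, namely SLC2A3, PFKL, PFKFB4, SLC16A1, EGLN3 and CA9. Since probes differ in how well they bind, this compares the brightness of spots and not amounts of transcript. The part of these marker signals in the results was not tested.

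**Figure D1:**
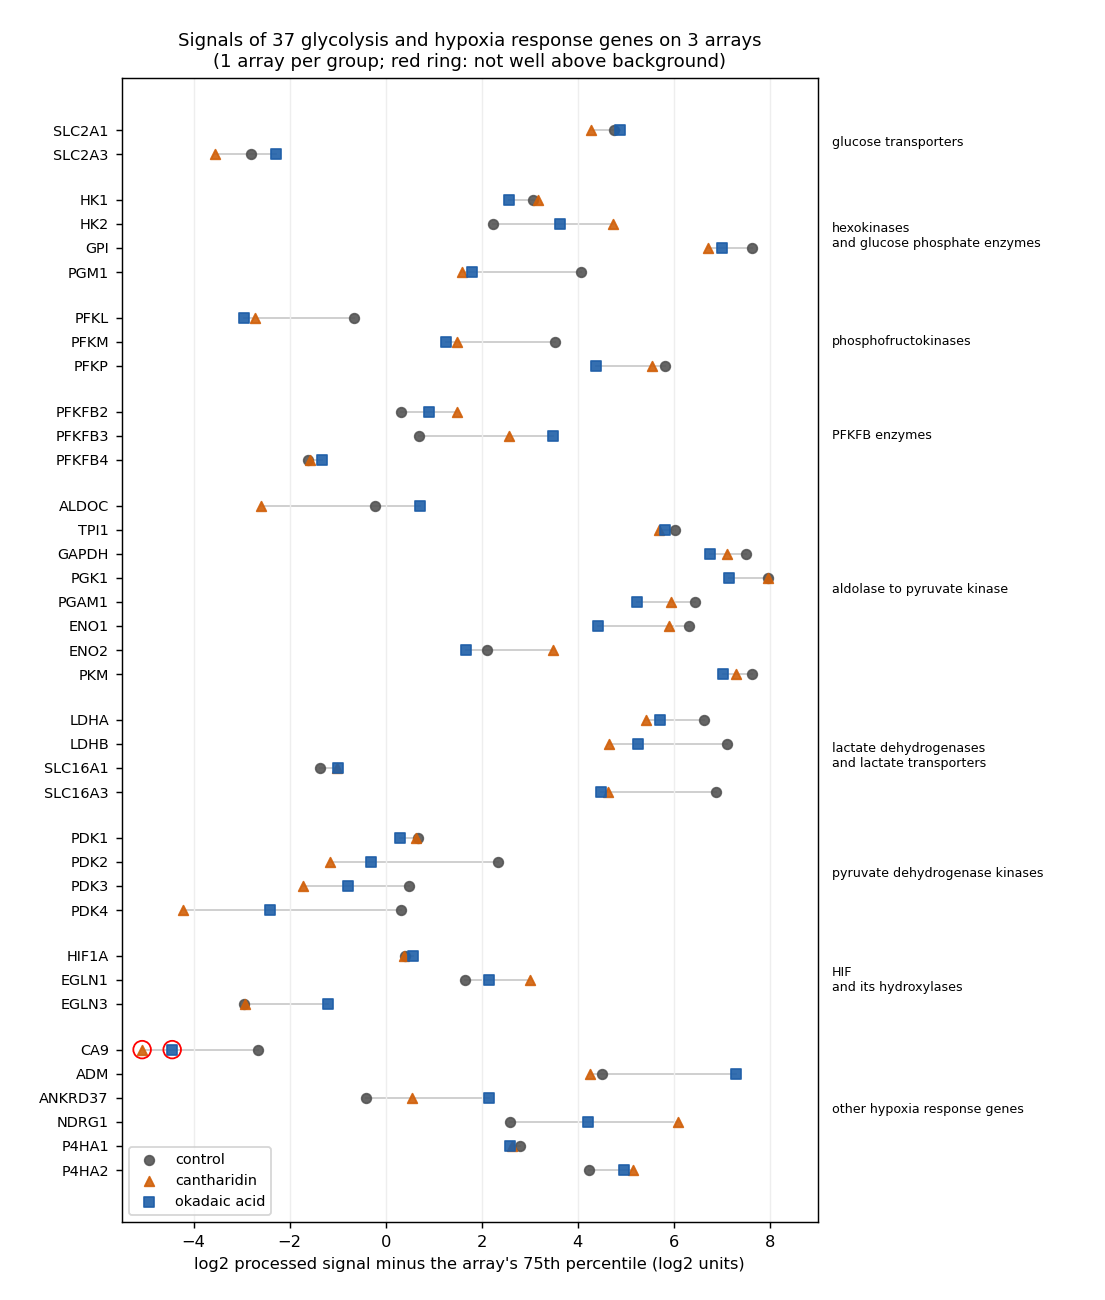
Scaled signal of each of the 37 genes on the control (grey circle), CAN (orange triangle) and OA (blue square) array, in log2 units relative to the 75th percentile of the array, grouped by role. Positions should be compared along a line and not between genes, and the widest line is that of PDK4, whose signal was 23.3-fold lower under CAN and 6.63-fold lower under OA.

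Across the listed genes, lower signals outnumbered higher ones under each agent. Under CAN, 8 of 37 genes were higher and 13 lower, with a median log2 difference of -0.33. Among all 16644 genes compared, 27.5% were higher and 34.1% lower, with a median of -0.16. Under OA, 9 of 37 genes were higher and 17 lower, with a median of -0.43, while 28.1% of 16166 genes were higher and 28.8% lower, with a median of 0.01. Under CAN the shares of the listed genes were thus close to, or for higher genes a little under, those over all genes. Under OA the lower share exceeded that over all genes with the scaling used here. The count lower under OA was 13 with quantile normalization, in the deposited table and without scaling. Over all genes the lower shares were then 29.2%, 30.5% and 22.4%. Both comparisons use the same control array, so they are not independent of each other. In a bulk sample, fewer cells with a transcript and less transcript per cell cannot be told apart.

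The 19 genes that run from the hexokinases through the glycolytic enzymes to the lactate dehydrogenases and lactate transporters gave 2 higher and 8 lower under CAN and 2 higher and 13 lower under OA, with medians of -0.43 and -0.81. Over all genes, 27.5% were higher and 34.1% lower under CAN, and 28.1% and 28.8% under OA. The lower genes included GPI, PGM1, phosphofructokinases, lactate dehydrogenases, SLC16A3 and, under OA, much of the stretch from GAPDH to PKM. The count lower under OA depends on the processing. Under OA, GPI, GAPDH, PGK1 and PKM lay within 1.5-fold of control in the deposited table, at log2 differences of -0.29, -0.46, -0.48 and -0.28. The higher signals lay mostly outside these steps, in PFKFB2 and PFKFB3 and in the hypoxia response genes.

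**Figure D2:**
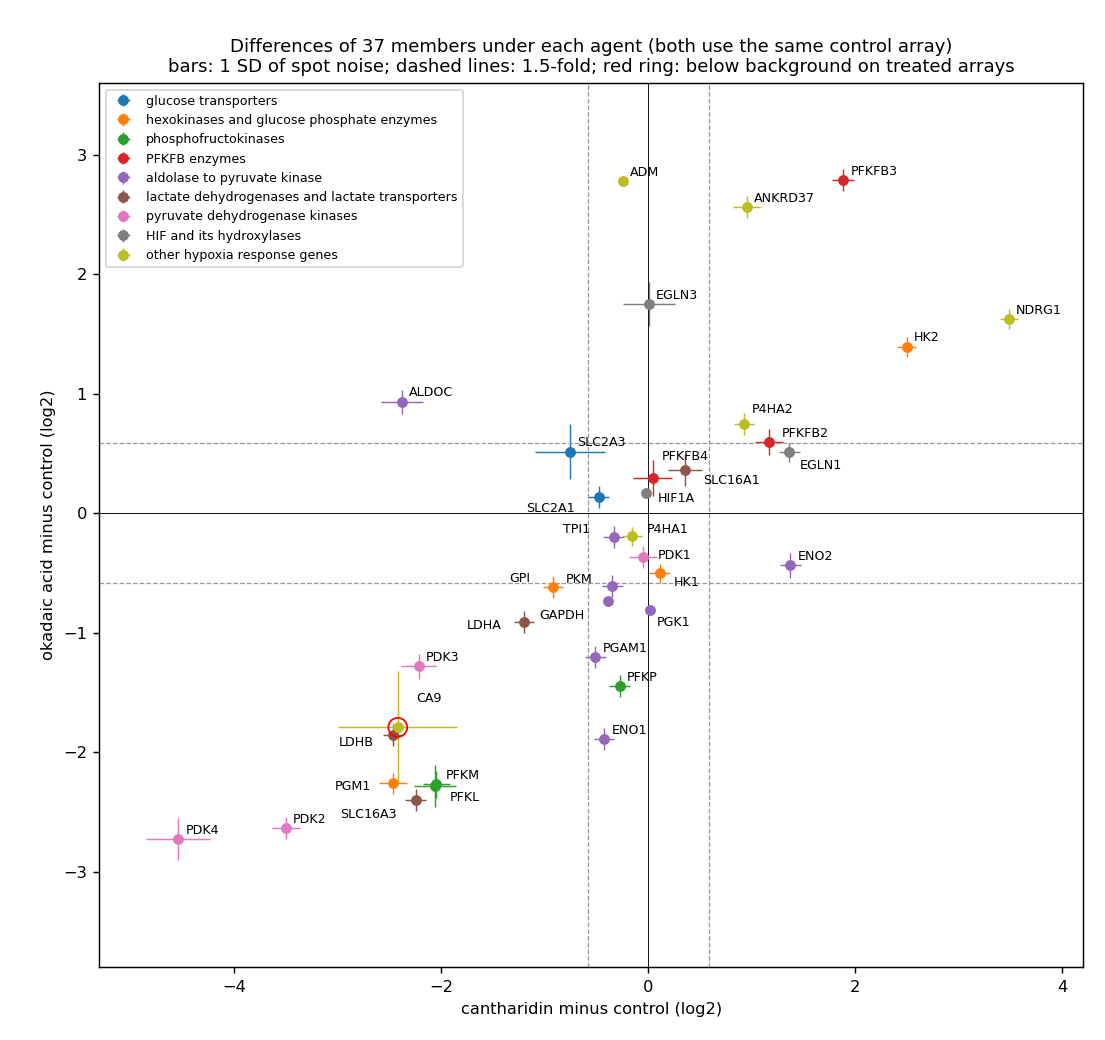
Log2 difference from control under CAN (horizontal axis) and OA (vertical axis) for the 37 genes, coloured by role, with bars of 1 SD of spot noise and dashed lines at 1.5-fold. PDK2 and PDK4 lie lowest on both axes, NDRG1 lies farthest right at 3.49, ADM and PFKFB3 lie highest at 2.78 and 2.79, and ALDOC stands alone at the upper left. Both axes use the same control array.

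Glucose enters cells through the facilitative transporters SLC2A1 and SLC2A3. SLC2A3, the high-affinity transporter, gave intensities of 112 on control, 60.5 on CAN and 192 on OA. The CAN array was the lowest, 1.69-fold below control with a log2 difference of -0.75 ± 0.34, and 2.41-fold higher on OA than on CAN. Its other probe stayed at background throughout. SLC2A1, the basal transporter, was within 1.5-fold of control under both agents.

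Hexokinase traps glucose as glucose 6-phosphate. HK2, the inducible isozyme of many tumours, gave 3677 on control, 18901 on CAN and 11532 on OA. It was lowest on control, and was 5.66-fold higher under CAN (log2 difference 2.50 ± 0.09) and 2.63-fold higher under OA (1.39 ± 0.08). Its second probe, which was not well above background on control, gave bounds of at least 2.63-fold higher under CAN and at least 1.66-fold higher under OA. HK1, the widely expressed isozyme, was within 1.5-fold under both agents, so the hexokinases did not move as a pair.

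The enzymes that handle glucose phosphates were lower. PGM1, which interconverts glucose 1-phosphate from glycogen and glucose 6-phosphate, gave 13129 on control, 2159 on CAN and 3275 on OA. Both treated arrays were below control, by 5.52-fold under CAN and 4.79-fold under OA. GPI, which makes fructose 6-phosphate, was 1.89-fold and 1.54-fold lower. In the deposited table its log2 difference under OA was -0.29, within 1.5-fold.

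All 3 phosphofructokinase genes, which encode the enzyme of the committed step of glycolysis, were lower under OA, and PFKL and PFKM were lower under CAN. The shares of all genes that were lower were 28.8% under OA and 34.1% under CAN. PFKL, the liver-type subunit, gave 495 on control, 108 on CAN and 121 on OA. Both treated values were below control, by 4.16-fold and 4.87-fold. PFKM, the muscle-type subunit, gave 9049, 1994 and 2240 in the same order. Its signals were again low on both treated arrays, by 4.12-fold and 4.82-fold. PFKP, the platelet-type subunit, gave 44438 on control, 33378 on CAN and 19469 on OA. It was lowest on OA, 2.72-fold below control (log2 difference -1.45 ± 0.09), while the CAN array was 1.21-fold below control, and its second probe gave 2.93-fold and 1.32-fold.

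The PFKFB enzymes, which make and break fructose 2,6-bisphosphate, the allosteric activator of phosphofructokinase, lay on the other side of control. PFKFB3, the isozyme with the strongest bias to synthesis, gave 1265 on control, 4242 on CAN and 10443 on OA. It was highest on OA, 6.92-fold above control, and 3.69-fold above control on CAN. The second PFKFB3 probe gave a smaller excess, 3.42-fold under OA and 1.63-fold under CAN. PFKFB2, the heart isozyme, gave 977, 1999 and 1762, with control lowest, and was 2.25-fold higher under CAN (log2 difference 1.17 ± 0.14) and 1.51-fold under OA (0.60 ± 0.11). PFKFB4 was within 1.5-fold under both agents. The shares of all genes that were higher were 27.5% under CAN and 28.1% under OA. The median differences of the phosphofructokinases and of the PFKFB enzymes lay on opposite sides of control on both treated arrays, with values of -2.04 and 1.17 under CAN and -2.27 and 0.60 under OA.

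From aldolase to pyruvate kinase, 8 genes were measured. Under CAN 1 was higher and 1 lower, with a median of -0.37, and under OA 1 was higher and 5 lower, with a median of -0.67. Of all genes, 27.5% were higher and 34.1% lower under CAN, and 28.1% and 28.8% under OA. In the deposited table, GAPDH, PGK1 and PKM lay within 1.5-fold of control under OA, and 30.5% of all genes were lower. ALDOC, the brain-type aldolase, gave 677 on control, 118 on CAN and 1541 on OA. It was lowest on CAN, 5.21-fold below control, and highest on OA, 1.91-fold above control, a gap of 9.94-fold between the agents. PGAM1, phosphoglycerate mutase, gave 68431, 43662 and 35471 and was lowest on OA, 2.30-fold below control. Its second probe was lower by 1.97-fold under CAN and 3.30-fold under OA.

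The enolases, which form phosphoenolpyruvate, split by isozyme and agent. ENO1, the ubiquitous enolase, gave 62575 on control, 42329 on CAN and 20111 on OA. On OA it was lowest, 3.71-fold below control (log2 difference -1.89 ± 0.09), against 1.34-fold below control on CAN. ENO2, the neuronal enolase, gave 3401 on control, 8010 on CAN and 3003 on OA. It stood high on CAN alone, 2.59-fold above control, and was 3.50-fold lower on OA than on CAN. The remaining genes of this stretch, GAPDH, PGK1, PKM and TPI1, stayed within 2-fold of control. GAPDH, PGK1 and PKM were lower under OA by 1.66-fold, 1.75-fold and 1.53-fold and within 1.5-fold under CAN, and TPI1 was within 1.5-fold under both. The deposited table put GAPDH, PGK1 and PKM at log2 differences of -0.46, -0.48 and -0.28 under OA, each within 1.5-fold.

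Lactate production and export genes were lower under both agents except for SLC16A1. Beside them, 34.1% of all genes were lower under CAN and 28.8% under OA. LDHA, the subunit that favours pyruvate reduction, gave 77503 on control, 30698 on CAN and 49160 on OA. Both treated arrays were below control, by 2.29-fold under CAN and 1.88-fold under OA, and by 2.99-fold and 2.97-fold on the second probe. LDHB, the heart-type subunit, gave 108764, 17887 and 35900. It was lowest on CAN, by 5.52-fold, and 3.62-fold below control on OA. On its second probe the order was turned, with 6.55-fold lower under CAN and 7.30-fold lower under OA.

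SLC16A3, the transporter that exports lactate from glycolytic cells, gave 92660 on control, 17769 on CAN and 20956 on OA. Both treated arrays were far below control, by 4.74-fold under CAN (log2 difference -2.24 ± 0.10) and 5.28-fold under OA (-2.40 ± 0.09). SLC16A1, the more widely expressed transporter of the same family, was within 1.5-fold under both agents, at 1.28-fold and 1.29-fold above control.

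Among the PDKs, the brake on pyruvate oxidation, PDK4 and PDK2 held the lowest differences from control of the whole list under both agents. Under CAN 3 of the 4 PDKs were lower with a median of -2.86, and under OA 3 of 4 with a median of -1.96. The shares of all genes that were lower were 34.1% under CAN and 28.8% under OA. PDK4, an isozyme raised by fasting in many tissues, gave 980 on control, 38.3 on CAN and 176 on OA. The signal on CAN was the lowest, 23.3-fold below control (log2 difference -4.54 ± 0.31), and 6.63-fold below control on OA (-2.73 ± 0.18). The size under CAN depends on how the background of the dim spot is treated, with log2 differences from -5.05 in the deposited table to -2.96 with normexp background correction. PDK2, a widely expressed isozyme, gave 3970, 319 and 762, which put both treated arrays far below control, by 11.3-fold under CAN and 6.22-fold under OA. PDK3 gave 1101 on control, 215 on CAN and 540 on OA, again lowest on CAN, with 4.65-fold under CAN and 2.43-fold under OA. PDK1, the isozyme most often described as a HIF target, was within 1.5-fold under both agents, at log2 differences of -0.04 and -0.37.

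Set directly against CAN, the OA array was higher for 3 of 4 PDKs with a median of 0.90. Across all listed genes that could be compared between the agents, 11 of 36 were higher on OA and 9 lower, with a median of -0.02, against 29.5% higher and 22.3% lower of 16200 genes and a median of 0.13. Without scaling of the arrays, the listed genes split into 15 higher and 5 lower with a median of 0.38, beside 47.1% higher and 13.9% lower over all genes with a median of 0.52. The pair of genes with the widest gap in each direction were ALDOC and ADM, higher on OA, and NDRG1 and ENO2, higher on CAN.

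HIF and the enzymes that control it showed no common direction. HIF1A, the oxygen-sensitive subunit of HIF-1, gave 1033 on control, 929 on CAN and 1390 on OA on its brighter probe, which was spotted 10 times. These were within 1.5-fold of control, at log2 differences of -0.02 ± 0.04 and 0.17 ± 0.03. The dimmer HIF1A probe gave 214, 111 and 81.6, and was 1.75-fold lower under CAN and 3.13-fold lower under OA, so the level of HIF1A depends on the probe read. Among the listed genes with a pair of probes, none had so wide a gap under OA, where it reached 1.82 on the log2 scale.

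EGLN1, the main hydroxylase that marks HIF for destruction in normal oxygen, gave 2452 on control, 5735 on CAN and 4165 on OA. It was highest on CAN, 2.57-fold above control, and 1.42-fold above control on OA. EGLN3, a hydroxylase that is itself induced by hypoxia, gave 102, 93.1 and 410. It was high on OA alone, by 3.36-fold (log2 difference 1.75 ± 0.18), with the CAN and control arrays almost equal.

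**Figure D3:**
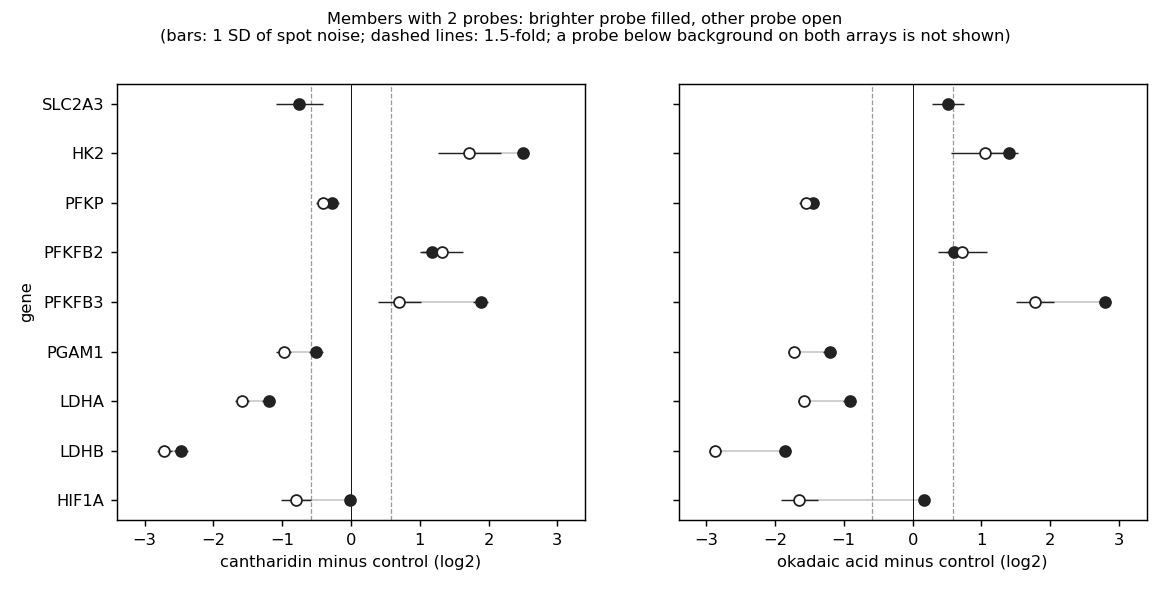
Log2 difference from control under CAN (left) and OA (right) for the 9 genes with 2 probes, with the brighter probe filled, the other open, bars of 1 SD of spot noise and dashed lines at 1.5-fold. No gene has its probes past 1.5-fold in opposite directions, and the widest gap is that of HIF1A under OA.

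The other hypoxia response genes were higher more often than lower, with 3 of 6 higher and 1 lower under CAN (median 0.39) and 4 of 6 higher and 1 lower under OA (median 1.19). Over all genes these shares were 27.5% and 34.1% under CAN and 28.1% and 28.8% under OA. ADM, which encodes the vasodilator peptide adrenomedullin and whose promoter is printed above, gave 17888 on control, 13714 on CAN and 146611 on OA. It was high on OA alone, 6.87-fold above control (log2 difference 2.78 ± 0.03 on 10 spots), and 1.19-fold below control on CAN. ANKRD37, an ankyrin repeat protein gene known as a HIF-1 target, gave 592, 1042 and 4173. The signal was lowest on control and highest on OA, at 1.94-fold for CAN and 5.91-fold for OA.

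NDRG1, a stress and hypoxia responsive gene linked to cell differentiation, gave 4737 on control, 48224 on CAN and 17420 on OA. The highest signal was on CAN, 11.2-fold above control (log2 difference 3.49 ± 0.09), and OA was 3.08-fold above control. P4HA2, a catalytic subunit of the collagen prolyl hydroxylase, was 1.90-fold and 1.68-fold higher under CAN and OA, while its paralogue P4HA1 was within 1.5-fold under both.

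CA9, the cell surface carbonic anhydrase that is among the best known hypoxia markers, went the other way. It gave 125 on control, 21.2 on CAN and 43.0 on OA, and was not well above background on either treated array. The fold is therefore a bound, at least 5.17-fold lower under CAN and at least 2.56-fold lower under OA. These bounds hold for the processed intensity, and normexp background correction gave smaller log2 differences of -1.01 and -0.90. Known hypoxia markers thus did not share a direction, with CA9 below control while ANKRD37 and NDRG1 lay above it on both treated arrays.

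Other genes of glucose, pyruvate and HIF pathways, 69 in number and listed by name, were read in the same way. Of these, 7 were below background on all 3 arrays. Under CAN, 20 of 62 genes compared were higher and 21 lower (median -0.07), and under OA 19 of 61 were higher and 14 lower (median -0.03). The shares over all genes were 27.5% higher and 34.1% lower under CAN, and 28.1% and 28.8% under OA. The values named here are those at least 4-fold from control, limited to the 6 with the greatest difference for each agent and direction.

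Genes that carry pyruvate into the mitochondrial pathway differed between the agents. Under CAN 7 of 10 were lower and 1 higher, with a median of -0.87, and under OA 2 were lower and 2 higher, with a median of 0.11. Over all genes, 34.1% were lower and 27.5% higher under CAN, and 28.8% and 28.1% under OA. Directly compared, 9 of the 10 pyruvate genes were higher on OA than on CAN, with a median of 1.16, against 29.5% of all genes. DLAT and PDHB, subunits of the pyruvate dehydrogenase complex, were 7.57-fold and 4.25-fold lower under CAN and 3.11-fold and 2.17-fold lower under OA. MPC1, a subunit of the mitochondrial pyruvate carrier, was 6.76-fold higher under OA and 1.08-fold lower under CAN. PDP2, a phosphatase that reverses the action of the PDKs, was 6.83-fold higher under OA and 2.20-fold higher under CAN.

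Among sugar phosphate and glycogen genes, TIGAR, a bisphosphatase that lowers fructose 2,6-bisphosphate, gave 61.1 on control, 406 on CAN and 688 on OA. Control was the lowest, 7.30-fold below CAN and 9.42-fold below OA. BPGM, which makes 2,3-bisphosphoglycerate, was 6.28-fold higher under OA and 1.83-fold higher under CAN. The glycogen phosphorylases PYGL and PYGB were 12.3-fold and 4.50-fold lower under OA and 1.74-fold and 1.79-fold lower under CAN. SLC2A4, the insulin-responsive glucose transporter, was not well above background on the treated arrays and was at least 12.0-fold lower under CAN and at least 5.93-fold lower under OA, bounds that hold for the processed intensity. With normexp background correction its log2 differences were -1.99 and -1.61. PCK2, a mitochondrial enzyme of gluconeogenesis, was 5.30-fold higher under CAN and 3.18-fold lower under OA.

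Further HIF target genes, 23 in number, gave 10 higher and 6 lower under CAN and 11 higher and 4 lower under OA. Beside these, 27.5% of all genes were higher and 34.1% lower under CAN, and 28.1% and 28.8% under OA. VEGFA, the angiogenic growth factor, was 8.79-fold higher under CAN and 3.91-fold higher under OA on its brightest probe, and 1.75-fold and 1.87-fold higher on the second. BHLHE41, a transcriptional repressor of the circadian clock, was 8.94-fold higher under CAN and 5.59-fold under OA. RORA, a nuclear receptor, was 7.81-fold and 6.50-fold higher. LOX, which crosslinks collagen, was 11.3-fold higher under OA and 1.19-fold higher under CAN. IGFBP3, an insulin-like growth factor binding protein, was 7.13-fold and 6.21-fold lower. VHL, which encodes the ligase subunit that recognises hydroxylated HIF, was 7.91-fold higher under CAN and 6.12-fold higher under OA.

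**Figure D4:**
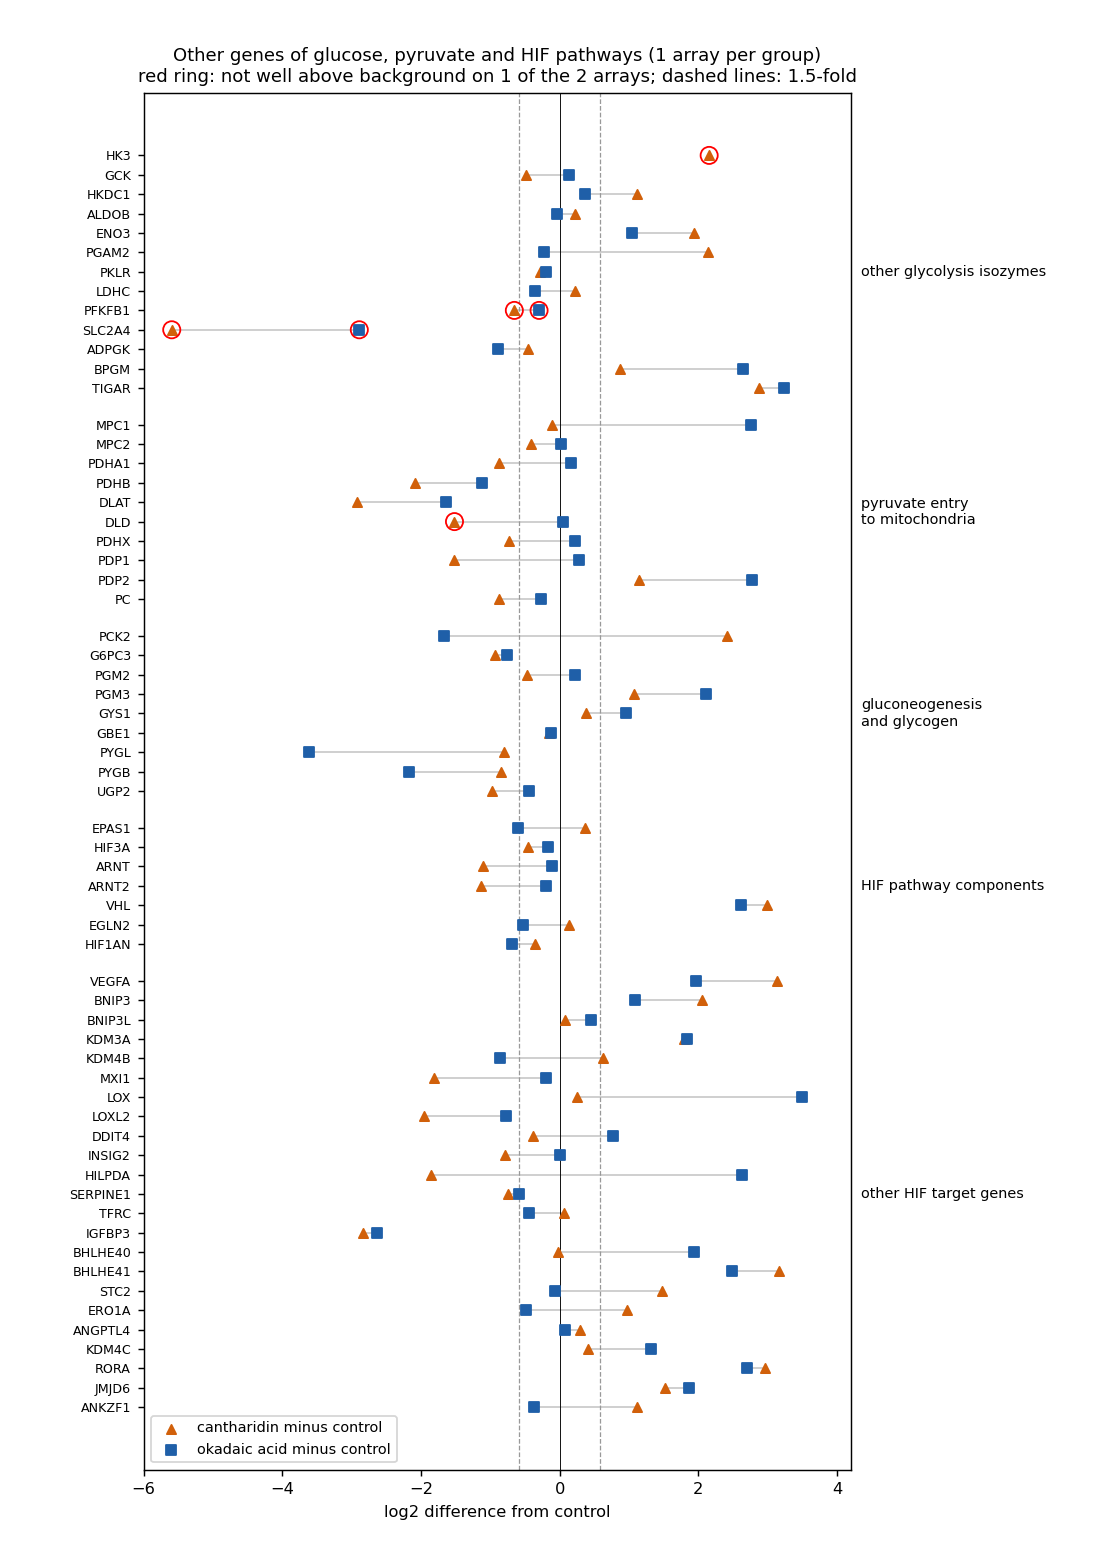
Log2 difference from control under CAN (orange triangles) and OA (blue squares) for the other genes of the pathways, grouped by role, with dashed lines at 1.5-fold and red rings where 1 of the 2 arrays was not well above background. In the pyruvate entry group every square lies to the right of its triangle, and PCK2, HILPDA and KDM4B have their symbols outside the dashed lines on opposite sides.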

How the data were processed

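Gene expression was measured on 3 Agilent 1-colour arrays of PANC-1 cells, and groups were taken from the sample labels. The authors deposited each scanner output made with Feature Extraction 11.0.1.1, with probe annotation on hg19. Per the file headers, the processed intensity was background-subtracted and detrended within each array and not scaled between arrays. Other deposited columns hold flags for outliers, saturation and signal well above background. A normalized table of log2 values was deposited too. How it was made is not given in the sources used here, and it served as an alternative. Across probes, r between a column and the array it belongs to was 0.998 or more, and no higher than 0.937 for any other array.

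All arrays shared 1 slide and 1 scan, so slide position and group cannot be told apart. Log2 intensity was averaged over unflagged spots (34041 probes), and the 75th percentile of each array was subtracted. Probes were named by RefSeq accession without version. The brightest probe by mean log2 signal represented a gene. A gene entered a comparison if either array had it well above background, and was called at 1.5-fold. A bound replaces the fold where 1 array was dim, for which the dim array was given its own signal or, if greater, the smallest signal it had well above background. No pseudocount and no test were used.

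Listed genes were given full values where they differed at least 2-fold in any comparison, differed at least 1.5-fold in opposite directions under the agents, or had probes that disagreed in that way (24 of 37). HIF1A was added after its values were seen. The members, lists and rules were chosen with earlier results of these data known. Counting was tested on simulated data, with changes larger than the 1.5-fold threshold planted in bright probes. That simulation did not cover planted changes near the threshold or in dim genes. Promoter sequences are those of RefSeq on GRCh38.p14. Alternatives covered background correction (normexp with an offset of 50 on median spot intensity, in place of mean intensity, which was not used here), scaling, filters, a 2-fold threshold, the median over probes and the deposited table. Software was limma 3.58.1 in R 4.3.3, and numpy 2.4.6, matplotlib 3.10.9 and pandas 2.3.3 in Python 3.11.15. Precision is limited by the number of arrays.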

Additional observations from a re-analysis of the deposited data

Results flagged for a closer look

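Differences from control ran in opposite directions under CAN and OA, past 1.5-fold on each side, for ALDOC of the listed genes and for PCK2, KDM4B and HILPDA of the other pathway genes. ALDOC was at -2.38 under CAN and 0.93 under OA, a gap of 3.31 on the log2 scale. HILPDA, a hypoxia-induced lipid droplet protein gene, was at -1.85 and 2.63, a gap of 4.48. PCK2 was at 2.41 and -1.67, a gap of -4.07 (OA minus CAN), and its second probe gave 0.82 and -0.89. KDM4B, a histone demethylase gene, was at 0.63 and -0.86, a gap of -1.49, while its dimmer probe gave -0.38 and 0.57. With 1 array per group, none of these differences between the agents was tested.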

How the results depend on the processing

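No paired analysis was possible because each group had 1 array, and no replicate could be left out. Over the 10 alternatives other than the 2-fold threshold, 20 of 21 calls under CAN were kept (lost in at least 1: SLC2A3), 21 of 26 under OA (lost: GPI, PFKFB2, GAPDH, PGK1 and PKM) and 13 of 20 between the agents (lost: SLC2A1, SLC2A3, HK1, PGK1, PGAM1, LDHB and EGLN1). CA9 could not be compared where signal well above background on all 3 arrays was required. The median difference of the listed genes under CAN was -0.33, and became -0.23 with quantile normalization, -0.47 without scaling and -0.22 in the deposited table. Under OA it was -0.43, and became -0.56 scaled to the median, -0.33 with quantile normalization, -0.18 without scaling and -0.29 in the deposited table. Between the agents it was -0.02, and became -0.17 scaled to the median and 0.38 without scaling. Genes lower on OA than on CAN numbered 9, and 5 without scaling or at 2-fold, and genes higher numbered 11, and 6 at 2-fold. Without scaling, 48.0% of the OA calls were higher, against 34.6%, and 15 of 20 calls between the agents, against 11 of 20. The median over all genes moved with the scaling too, from -0.30 to -0.09 under CAN and from -0.11 to 0.26 under OA. No called difference of a listed gene turned its direction under any alternative run. Of the named genes with dim signals, normexp background correction also moved ALDOC (-1.79), DLAT (-2.14), RORA (1.66) and TIGAR (1.80) under CAN and EGLN3 (1.15), RORA (1.40), TIGAR (2.05) and LOX (2.56) under OA by over 1.5-fold toward 0, and the median over probes gave 1.29 for PFKFB3, 1.97 for VEGFA and 1.61 for PCK2 under CAN and -0.74 for HIF1A under OA. Genes near background on some array, such as CA9, SLC2A3, PDK4 and EGLN3, carry the widest spot noise. Calls within 1 SD of noise of the threshold were SLC2A3 under CAN and GPI, PFKFB2 and PKM under OA.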
